A study of Mus musculus with 29 samples.

Results

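The PRDM family factors examined here were the 9 genes Prdm1, Prdm2, Prdm4, Prdm8, Prdm10, Prdm11, Prdm13, Prdm15 and Prdm16, matched by gene name among the 24062 genes of the RNA-seq table. Their RNA was followed across 15 libraries from sorted cells of the adult mouse retina, with 3 libraries for each of 5 populations. Bipolar cells relay signals from photoreceptors to the inner retina, and were sorted by GFP placed at the endogenous Otx2 locus. All bipolar libraries therefore came from mice heterozygous for this knock-in. The pan-bipolar population (pan-BC) came from Otx2-GFP+/- mice of postnatal day 44 to 47. ON and OFF bipolar cells (ON-BC, OFF-BC), which respond to light onset and light offset, came from Otx2-GFP+/-; Grm6-YFP+/+ mice of day 42 to 48, in which a Grm6 promoter drives YFP in ON cells, and OFF-BC alone were sorted a second time. Rods (Nrl-eGFP mice) and photoreceptors lacking the rod factor Nrl (Nrl-eGFP;NrlKO mice), which take on a blue cone identity and are called blue cones here, came from day 56 mice of an earlier study of the same laboratory. Blue cones are thus a mutant stand-in for native cones. Between bipolar cells and photoreceptors, cell class, study, age and reporter cannot be told apart. Cells of intermediate YFP, thought by the authors to include the BC5D type, fell outside both the ON and the OFF gate. Open chromatin was measured by ATAC-seq in 12 libraries, 2 each from these 5 populations and from green cones of Opn1mw-GFP mice (day 56), and 2 further double-sorted green cone libraries had peaks alone. Per the labels, the ATAC-seq pan-BC also carried Grm6-YFP+/+ and were of day 43 and 44, and those of ON-BC and OFF-BC were of day 42 and 46. By their different ages, the replicates of ON-BC and of OFF-BC came from different animals. For the photoreceptors, which share 1 age, the labels do not say so. Nor do they for replicates 2 and 3 of the RNA-seq pan-BC, both of day 44. The paper calls the replicates of its photoreceptor and bipolar populations biological in both assays, without giving the animals behind each.

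PRDM proteins carry a PR domain, a relative of the SET domain of histone methyltransferases, and most carry zinc fingers that bind DNA. Some methylate histones themselves, and others recruit methyltransferases, deacetylases or other repressors. In the developing retina, Prdm1 (Blimp1) is known for holding Otx2-positive precursors to the photoreceptor fate over the bipolar fate, Prdm8 for its part in bipolar cell development, and Prdm13 for a group of amacrine interneurons.

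The sequences below are those of Prdm1 and Prdm8, shown because both their RNA and nearby regions of open chromatin differed between populations. Each promoter is the 250 bases before the RefSeq transcription start site (TSS), read along the gene. Each region is the 201 bases of an ATAC-seq region, read on the plus strand, all from RefSeq build GRCm38.p6. RefSeq held promoter entries for 8 of the 9 members. Capitals mark TAATC, the core of the K50 homeodomain sites that Otx2 and Crx bind, or CAGATG, an E-box, on either strand (GATTA is TAATC on the minus strand). The Q50 homeodomain core TAATTA was searched as well, and no match of any motif overlapped another.
Prdm1 promoter (chr10:44458749-44458998, minus strand): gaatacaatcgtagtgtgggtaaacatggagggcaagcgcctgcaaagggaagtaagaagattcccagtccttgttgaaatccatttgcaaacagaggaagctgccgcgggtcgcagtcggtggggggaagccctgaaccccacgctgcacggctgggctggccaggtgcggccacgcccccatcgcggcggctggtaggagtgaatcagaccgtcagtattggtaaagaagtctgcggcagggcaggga
Prdm1 region 5999 bp upstream (chr10:44464647-44464847, in an intron of the Prdm1 gene record): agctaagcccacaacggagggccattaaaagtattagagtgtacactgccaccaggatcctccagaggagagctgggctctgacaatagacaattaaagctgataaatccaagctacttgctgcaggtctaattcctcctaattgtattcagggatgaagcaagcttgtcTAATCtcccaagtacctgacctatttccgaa
Prdm1 region 38379 bp downstream (chr10:44420269-44420469, in an intron of Gm35028): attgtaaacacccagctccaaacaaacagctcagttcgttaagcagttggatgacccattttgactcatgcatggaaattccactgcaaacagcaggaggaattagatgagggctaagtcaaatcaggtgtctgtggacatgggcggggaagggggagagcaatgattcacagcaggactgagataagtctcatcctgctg
Prdm8 promoter (chr5:98180619-98180868, plus strand): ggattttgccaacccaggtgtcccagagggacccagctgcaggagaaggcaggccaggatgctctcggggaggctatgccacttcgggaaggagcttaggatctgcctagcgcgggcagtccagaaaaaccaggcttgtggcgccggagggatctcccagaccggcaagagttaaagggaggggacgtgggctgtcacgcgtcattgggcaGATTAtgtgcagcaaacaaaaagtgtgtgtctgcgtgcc
Prdm8 region 14549 bp upstream (chr5:98166220-98166420, between genes): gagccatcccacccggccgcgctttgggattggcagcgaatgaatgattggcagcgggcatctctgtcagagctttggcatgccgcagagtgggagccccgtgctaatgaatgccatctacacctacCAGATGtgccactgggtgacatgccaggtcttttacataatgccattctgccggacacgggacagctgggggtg
Prdm8 region 42612 bp upstream (chr5:98138157-98138357, in an intron of Gm42121): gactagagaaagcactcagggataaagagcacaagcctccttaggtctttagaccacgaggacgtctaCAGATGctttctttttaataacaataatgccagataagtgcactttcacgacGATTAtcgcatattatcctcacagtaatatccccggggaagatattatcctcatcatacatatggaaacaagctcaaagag
The region 5999 bp upstream of Prdm1, most open in photoreceptors, held 1 TAATC, and the region 14549 bp upstream of Prdm8, open in ON-BC and pan-BC, held 1 CAGATG. The region 42612 bp upstream of Prdm8 held both, and the Prdm8 promoter held 1 TAATC. None of the 3 motifs was found in the Prdm1 promoter or in the region 38379 bp downstream of Prdm1. Such matches are common: TAATC was present in 40.7% of all 110715 regions and in 19.8% of 32851 promoters, CAGATG in 22.4% and 14.4%, and TAATTA in 5.2% and 4.8%.

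The RNA-seq libraries held 12329548 to 26266746 counted reads, and the ATAC-seq libraries 4176776 to 12345845. RNA levels below are normalized counts, that is reads divided by the size factor of the library, so that 1 read was worth about 1. Each sorted class had the highest level of its own markers. The summed level of 10 bipolar markers was 118816 to 166458 in the 9 bipolar libraries, 8272 to 9265 in rods and 32867 to 38071 in blue cones, in the last mainly from Cabp5 (25242 to 29460). The 6 rod markers summed to at least 1424442 in rods and to 899 to 1409 in OFF-BC, but to 9199 to 11554 in blue cones and to 16941 to 23105 in ON-BC and pan-BC. The 5 cone markers summed to at least 1437657 in blue cones and 10132 to 10265 in rods. In pan-BC they summed to 66063, 40362 and 56200, in ON-BC to 3942, 4587 and 4236, and in OFF-BC to 22201, 20234 and 89854, so that the OFF-BC libraries differed among themselves and replicate 3 stood apart.  In bulk samples, fewer cells of a type and less RNA per cell cannot be told apart.

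Genes were compared with one another only per length, as the mean normalized count per kb of exon. On this scale Prdm8 was the leading member in pan-BC at 245 and in ON-BC at 278, where it made up 54.9% and 54.5% of the summed level of the 9 members. Prdm4 and Prdm2 followed at 82.9 and 74 in pan-BC and at 97.9 and 94.3 in ON-BC. In OFF-BC, Prdm2 (91) and Prdm4 (90.9) led, and Prdm8 stood at 40.2, or 14.6% of the sum. Prdm1 led in rods at 148 (28.7%) ahead of Prdm2 at 107, Prdm8 at 98.3, Prdm4 at 71 and Prdm15 at 61.3, and in blue cones at 383 (62.2%) ahead of Prdm8 at 79.8. The make-up of the family thus differed by population in this measure, with Prdm8 the main member in ON-BC and pan-BC and Prdm1 in photoreceptors.

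**Figure D1:**
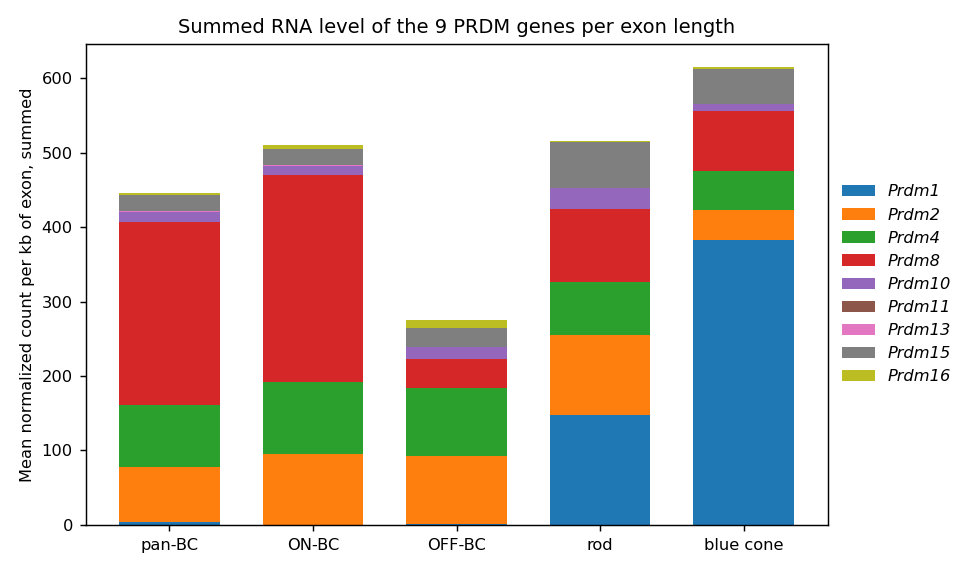
Stacked bars give the mean normalized count per kb of exon of each of the 9 PRDM genes, summed, for each of the 5 populations (3 libraries each). Prdm8 fills most of the pan-BC and ON-BC bars (245 and 278), and Prdm1 most of the blue cone bar (383).

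Prdm8, a zinc finger protein of neurons that acts with the bHLH factor Bhlhe22, had normalized counts of 795, 722 and 779 in pan-BC and of 779, 898 and 928 in ON-BC. In OFF-BC the counts were 120, 84.1 and 172. In rods they were 353, 281 and 286, and in blue cones 245, 237 and 265. Every ON-BC library was above every OFF-BC library, and OFF-BC was the lowest of the 5 populations, below both kinds of photoreceptor with no overlap. The means were 868 ± 78.5 (SD, n = 3) in ON-BC, 765 ± 38.1 in pan-BC and 125 ± 44.3 in OFF-BC. Rods had 307 ± 40.3 and blue cones 249 ± 14.5, and of the neighbours in this order only ON-BC and pan-BC overlapped.

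The comparison of ON-BC with OFF-BC asks which genes separate these sorted populations. The authors estimate that rod bipolar cells make up the larger part of their ON population, beside ON cone bipolar cells. A difference of ON from OFF cells and one of rod from cone bipolar cells thus cannot be told apart here. Each gene was tested by limma's treat against a log2 fold change of 1, on log2(normalized count + 1), with Benjamini-Hochberg adjustment over the 14024 genes that passed a filter on low counts. Log2 fold changes on this scale, given with their standard error (SE), understate changes of genes with few reads. Of the members, 7 of 9 passed the filter, and 1 of these 7 was called higher in ON-BC, with 0 called in the other direction, where 2.95% and 3.6% of all genes tested were called (1 of the 7 had an unadjusted p under 0.05, and edgeR and DESeq2 called 1 each). Prdm8 was this gene, with a log2 fold change of 2.84 (SE 0.19, limma adjusted p = 2.5e-06), or 7.15-fold. It was called in 14 of 14 alternative fits, at 2.58 to 3.10. The members' median log2 fold change was -0.20, against -0.02 over all genes. Rod markers were also higher in ON-BC than in OFF-BC (above), although the Prdm8 level of rods was below that of ON-BC, and OFF-BC were sorted once more than ON-BC. The part of either in the Prdm8 result was not tested. Prdm8 shares 1162 bp of exon with A730035I17Rik, a noncoding RNA on the opposite strand that has no row in the table, and the library kit does not mark strand, so reads of these genes cannot be told apart.

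Against blue cones, Prdm8 was higher in pan-BC by a log2 fold change of 1.62 (SE 0.19, limma adjusted p = 0.009), a call made in 14 of 14 alternatives. Against rods the difference was 1.32 (SE 0.19) and missed the threshold of 0.05 with a limma adjusted p of 0.12, although the ranges did not overlap. edgeR, limma against no change and a fit of pan-BC and rods alone each called it.

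**Figure D2:**
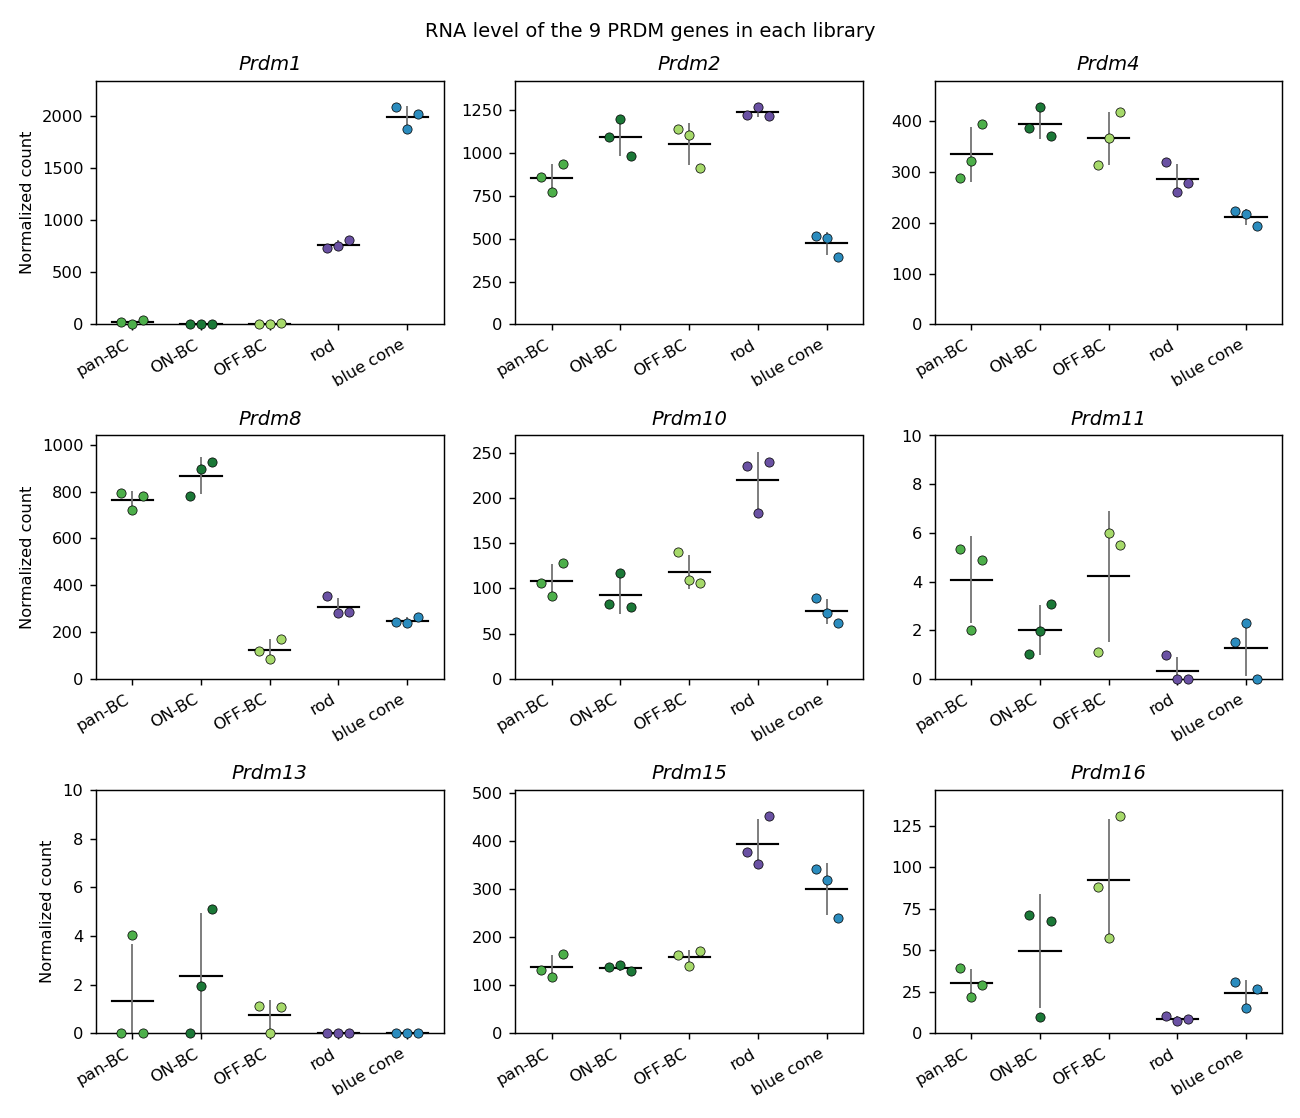
Each point is 1 RNA-seq library, with the normalized count on a linear axis that starts at 0 and is set for each gene; horizontal lines are means and vertical lines 1 SD (n = 3). Prdm8 is low in OFF-BC (84.1 to 172) and high in ON-BC (779 to 928), Prdm1 is high in rods and blue cones alone, and Prdm11 and Prdm13 stay near 0 throughout.

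Prdm1, the repressor that holds precursors to the photoreceptor fate, had counts of 739, 750 and 816 in rods and of 2090, 1876 and 2019 in blue cones. In pan-BC the counts were 23.4, 7.06 and 39.2, and in OFF-BC 4.47, 2.40 and 15.4. In ON-BC they were 0, 2.94 and 3.08, which rest on 0, 3 and 3 reads. All 6 photoreceptor libraries were thus above all 9 bipolar libraries, and the bipolar populations overlapped with their neighbours in the order pan-BC, OFF-BC and ON-BC. The means were 1995 ± 109 (SD, n = 3) in blue cones, 768 ± 41.5 in rods, 23.2 ± 16 in pan-BC, 7.44 ± 7.01 in OFF-BC and 2.01 ± 1.74 in ON-BC.

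Among bipolar libraries, Prdm1 was highest in pan-BC replicate 3, pan-BC replicate 1 and OFF-BC replicate 3. The cone marker sum was highest in OFF-BC replicate 3 and pan-BC replicates 1 and 3, and the ON-BC population was the lowest by its mean in Prdm1 and in every library in the cone markers. The part of cone RNA in the bipolar Prdm1 level was not tested. ON-BC and OFF-BC differed by -1.42 on the log2 scale (SE 0.62, limma adjusted p = 1).

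The comparisons of pan-BC with photoreceptors ask what separates the sister classes that both express Otx2. Against rods, 0 of the 7 members tested were higher in pan-BC and 2 in rods, where 27.8% and 15.8% of all genes were called (2 of the 7 had an unadjusted p under 0.05, and in either direction edgeR called 3 and DESeq2 2). Against blue cones, 1 was higher in pan-BC and 1 in blue cones, where 22.7% and 13.7% of all genes were called. With 7 genes tested, these counts do not set the members apart from other genes. Prdm1 was lower in pan-BC, with log2 fold changes of -5.27 against rods (SE 0.62, limma adjusted p = 7.3e-06) and of -6.65 against blue cones (SE 0.62, limma adjusted p = 4.5e-07). Both calls were made in 14 of 14 alternatives, at -5.78 to -4.62 and at -7.15 to -5.99. The members' median was -0.53 against rods (all genes 0.21) and 0.54 against blue cones (all genes 0.16).

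Between rods and blue cones, 1 of the 7 members tested was higher in rods and 0 in blue cones, where 4.63% and 11.3% of all genes were called (2 of the 7 had an unadjusted p under 0.05, and edgeR called 2 and DESeq2 1). The Prdm1 ranges of rods and blue cones did not overlap, and the difference was -1.38 (SE 0.62). With the spread shared by all 15 libraries, in which the sparse bipolar counts of Prdm1 take part, limma's adjusted p was 0.99, and with the rod and blue cone libraries alone it was 0.012. The size of the difference was the same in both fits, which differ in the libraries that set the spread. Of 14 alternatives, the fit of rods and blue cones alone was the only 1 that called Prdm1 here.

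**Figure D3:**
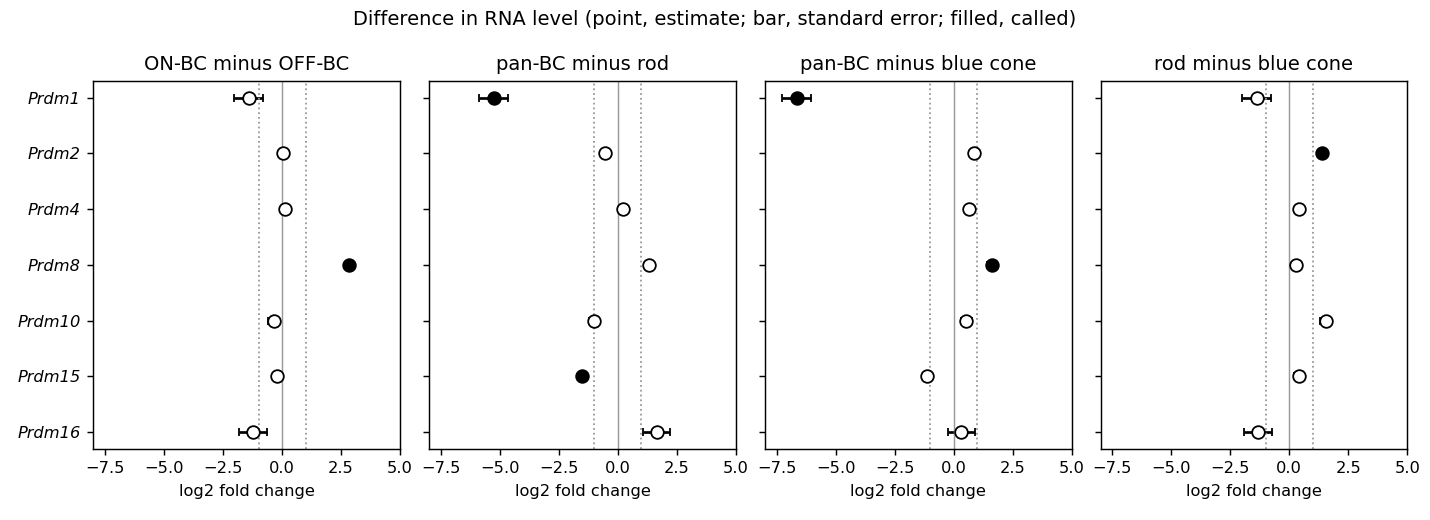
Points are log2 fold changes of the 7 PRDM genes tested, first population minus second, on the log2(normalized count + 1) scale; bars are standard errors and filled points are called by limma at an adjusted p under 0.05, with dotted lines at the tested change of 1. Prdm8 alone is filled between ON-BC and OFF-BC (2.84), and Prdm1 lies farthest from 0 in both comparisons of pan-BC with photoreceptors (-5.27 and -6.65).

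Prdm2 (RIZ) is a methyltransferase for histone H3 lysine 9. Its counts were 1222, 1266 and 1217 in rods and 515, 505 and 395 in blue cones. Those of pan-BC were 858, 773 and 934, of ON-BC 1094, 1195 and 979, and of OFF-BC 1138, 1103 and 914. Rods were above every other library and blue cones below every other library, while OFF-BC overlapped both ON-BC and pan-BC, and every ON-BC library was above every pan-BC library. Prdm2 was the member called between the photoreceptors, at 1.40 (SE 0.13, limma adjusted p = 0.021, 2.63-fold). The call was lost without rod replicate 2, without blue cone replicate 3 and with rods and blue cones alone, where the adjusted p reached 0.13. Its difference between ON-BC and OFF-BC was 0.05, and the sign turned without ON-BC replicate 2 or OFF-BC replicate 3.

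Prdm15, a zinc finger factor known from pluripotent cells, had counts of 378, 352 and 452 in rods and 341, 320 and 239 in blue cones. Bipolar counts ran from 117 to 172 over all 9 libraries, below every photoreceptor library. Pan-BC minus rods was -1.51 (SE 0.18, limma adjusted p = 0.015, 2.86-fold), a call lost without pan-BC replicate 2 or without rod replicate 3 (adjusted p up to 0.072). Against blue cones the difference was -1.11 (SE 0.18, limma adjusted p = 0.57).

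Prdm10, a broadly expressed zinc finger factor, had counts of 235, 183 and 240 in rods and 89.5, 72.8 and 62.2 in blue cones, with 79 to 140 in the bipolar libraries. Rods were above all other libraries. The difference between rods and blue cones was 1.54 (SE 0.23, limma adjusted p = 0.086), which edgeR, limma against no change and the fit without blue cone replicate 1 called. That between pan-BC and rods was -1.01 (limma adjusted p = 0.84).

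Prdm4, which is known to act with the arginine methyltransferase Prmt5, moved least among the tested members. Its counts ran from 193 in a blue cone library to 427 in an ON-BC library, the highest population mean was 1.87 times the lowest, and it was called in no comparison by the tests against a log2 fold change of 1. limma against no change called it for pan-BC against blue cones and for rods against blue cones, at 0.65 and 0.43 on the log2 scale. Only rods and blue cones failed to overlap among neighbours in its order.

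Prdm16, best known from brown fat and neural stem cells, was low. OFF-BC libraries had 88.3, 57.7 and 131, and ON-BC libraries 71.2, 9.80 and 67.7, of which replicate 2 rests on 10 reads. Rods had 10.7, 7.17 and 8.65, pan-BC 39.4, 22.2 and 29.4, and blue cones 30.8, 15.2 and 26.6. OFF-BC and ON-BC overlapped and differed by -1.23 (SE 0.58, limma adjusted p = 1), and pan-BC against rods gave 1.65 (SE 0.58, limma adjusted p = 0.28).

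Prdm11 and Prdm13 did not pass the filter on low counts. Over 3 libraries, Prdm11 had 11 reads in both pan-BC and OFF-BC, 6 in ON-BC, 5 in blue cones and 1 in rods. Prdm13, the amacrine factor, had 4, 7 and 2 reads in pan-BC, ON-BC and OFF-BC and 0 in rods and blue cones. At these depths no difference between populations could be detected for either gene. Amacrine markers were low in the bipolar libraries, where the 7 genes summed to 327 to 1113. In photoreceptor libraries the sum was 1371 to 2448, nearly all of it from the glycine transporter gene Slc6a9 (1337 to 2427), while Gad1, an enzyme of GABA synthesis, was at 0 to 5.18 there against 22.7 to 71.3 in bipolar libraries, and Pax6 was at 5.26 to 47.1 against 102 to 190.

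For the 3 members whose population means ranged most, the tested genes closest in pattern over the 15 libraries were found by Pearson's r on the log2 scale. These libraries share their populations, so the values describe likeness only. Prdm1 was closest to Aipl1 (0.984), Ankrd33 (0.982) and Fabp12 (0.982), the first a chaperone of photoreceptor phosphodiesterase. Prdm8 was closest to Zfp879 (0.986), Ash2l (0.969) and Klhl41 (0.967). Zfp879 had mean counts of 345, 375 and 32.4 in pan-BC, ON-BC and OFF-BC and of 79.2 and 74 in rods and blue cones, so it too was lowest in OFF-BC. Prdm16 was closest to 4931429L15Rik (0.905), Myo18b (0.879) and Optc (0.878), all of them low in every population.

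Among other PRDM genes, Prdm9 differed more between the classes than most members. Prdm9, known for placing meiotic recombination, had 2846, 2876 and 2842 in rods and 1061, 769 and 643 in blue cones, against 106 to 201 in bipolar libraries. Pan-BC minus rods was -4.41 (limma adjusted p = 2e-10) and pan-BC minus blue cones -2.58 (limma adjusted p = 4.7e-06), while rods exceeded blue cones by 1.82 (limma adjusted p = 0.0055). Prdm6 had no read in any library.

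Of 16 listed cofactors, all tested, 1 differed between ON-BC and OFF-BC. This was Bhlhe22, the partner of Prdm8, with 16.5, 39.2 and 8.21 in ON-BC and 218, 524 and 391 in OFF-BC, a difference of -4.25 (limma adjusted p = 0.00053). Between ON-BC and OFF-BC, Bhlhe22 was thus higher where Prdm8 was lower. In pan-BC it had 117, 136 and 152, in rods 1.94, 0 and 2.16, and in blue cones 0, 0 and 1.48, and it was called higher in pan-BC than in both photoreceptors. Against rods 5 cofactors were higher in pan-BC, among them the Groucho corepressors Tle3 (6.38) and Tle1 (4.65), and 1 in rods, Tle4 (-1.45). Against blue cones 4 were higher in pan-BC, with Tle2 at 2.18 and Tle1 at 1.69, and 2 in blue cones, Tle4 at -1.67 and the H3 lysine 9 methyltransferase Suv39h1 at -1.39. Between rods and blue cones 2 were higher in blue cones, Tle3 (-5.99) and Tle1 (-2.96). Of all genes, 2.95% and 3.6% were called higher in ON-BC and OFF-BC, and 27.8% and 15.8% in pan-BC and rods. The shares were 22.7% and 13.7% for pan-BC and blue cones, and 4.63% and 11.3% for rods and blue cones. With 16 genes tested, these counts do not set the cofactors apart from other genes. The cofactors' median log2 fold changes were -0.21, 0.73, 0.56 and -0.37 in these 4 comparisons, against -0.02, 0.21, 0.16 and 0.00 over all genes.

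Of 13 listed regulators of retinal fate, 10 were tested. The ON bipolar factor Isl1 was the one called between ON-BC and OFF-BC, higher in ON-BC by 5.96 (limma adjusted p = 8e-06). Against rods 7 were higher in pan-BC, led by the bipolar factors Vsx1 (8.39), Lhx4 (8.13) and Isl1 (8.08), and 2 in rods, the photoreceptor homeodomain factors Rax (-3.80) and Crx (-2.76). Against blue cones the counts were 7 and 2, with Vsx1 at 7.64 and Isl1 at 7.39, and with Rax at -3.89 and Crx at -2.12. Between rods and blue cones 3 were higher in blue cones, among them Lhx4 (-4.73) and Neurod4 (-1.81). Of all genes, 2.95% were called higher in ON-BC than in OFF-BC, and 11.3% higher in blue cones than in rods. For pan-BC the shares were 27.8% and 15.8% against rods and 22.7% and 13.7% against blue cones. Prdm1 lay on the side of Crx and Rax in both comparisons of pan-BC with photoreceptors.

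Accessibility was given as normalized ATAC-seq counts in 110715 regions of 201 bases, each assigned to the gene with the nearest RefSeq TSS. This gave 63 regions to members, all of them tested among 108448. Prdm1 had 26, Prdm8 9, Prdm11 8, Prdm13 7, Prdm10 5, Prdm2 and Prdm15 3 each, Prdm4 2 and Prdm16 0. The 14 regions inside the long Prdm16 gene were all nearer to a TSS of another gene. So were 9 of 10 regions inside Prdm11, 5 of 8 inside Prdm2 and 4 of 9 inside Prdm10. For Prdm15 it was 2 of 5 and for Prdm8 1 of 8, so the regions given to these genes do not cover their whole loci. A nearest TSS is a position, and does not show which gene a region acts on.

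Promoters of most members were open in every population, whether or not RNA levels differed. A peak with its summit in the promoter (from 1000 bp before the TSS to 100 bp after it) was called in 14 of 14 libraries for Prdm1, Prdm4, Prdm8, Prdm10 and Prdm15 and in 12 for Prdm2, in 2 for Prdm11 and in 0 for Prdm13 and Prdm16. The fold enrichment of these peaks over local background was highest for Prdm4 at 22 to 33.9 and was 13.1 to 25.4 for Prdm1, 9.28 to 14.4 for Prdm15, 7.82 to 11.8 for Prdm10, 5.67 to 13.2 for Prdm2 and 4.93 to 10.9 for Prdm8. Prdm11, whose RNA was near 0, had a region 501 bp downstream of its TSS with counts of 319 to 747 and a peak in all 14 libraries.

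Between ON-BC and OFF-BC, 2 of the 63 regions were more open in ON-BC and 2 in OFF-BC (3.17% each), where 4.58% and 2.8% of all regions were called. Against rods, 14 were more open in pan-BC (22.2%) and 12 in rods (19%), where 40.3% and 11.2% of all regions were called. Against blue cones, 14 were more open in pan-BC (22.2%) and 10 in blue cones (15.9%), where 28.8% and 7.13% were called. Between rods and blue cones, 1 was more open in rods and 0 in blue cones, where 1.46% and 8.56% were called (5 had an unadjusted p under 0.05, and edgeR called 6 and DESeq2 1 in either direction). The members' median log2 fold changes were 0.28, -0.24, -0.18 and -0.06, and those of all regions 0.15, 1.16, 0.54 and -0.20. TMM scaling moved the latter to -0.07, 0.97, 0.26 and -0.27, and the share of ON-BC against OFF-BC calls that were higher in ON-BC from 62.1% to 50.8%.

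Prdm1 held most of the regions that were more open in photoreceptors. Of its 26 regions, 11 (42.3%) were more open in rods and 2 (7.69%) in pan-BC, where 11.2% and 40.3% of all regions were called. In the other comparison, 9 (34.6%) were more open in blue cones and 1 (3.85%) in pan-BC, where 7.13% and 28.8% were called. Some neighbouring regions lay under the same peak, as those 19799 and 19491 bp upstream did in rods, so not all are separate elements. The region 5999 bp upstream of the Prdm1 TSS, whose sequence is given above, had counts of 400 and 374 in rods. Blue cones had 278 and 319, and green cones 304 and 286. In pan-BC the counts were 26.4 and 42.8, in ON-BC 17.9 and 17.6, and in OFF-BC 132 and 78.9. Photoreceptors were above all bipolar libraries, and OFF-BC above the other bipolar libraries. The log2 fold changes were -3.49 against rods (SE 0.26, limma adjusted p = 3.3e-07), -3.11 against blue cones (SE 0.26, limma adjusted p = 7.5e-06) and -2.46 for ON-BC minus OFF-BC (SE 0.26, limma adjusted p = 0.0013). The last call was lost in a fit of ON-BC and OFF-BC alone (limma adjusted p = 0.061). Promoter regions of the 5 cone markers summed to 380 and 407 in OFF-BC, 252 and 247 in ON-BC, 232 and 233 in pan-BC, and 1368 and 1359 in blue cones, and their part in the OFF-BC value was not tested.

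The Prdm1 promoter region, centred 68 bp downstream of the TSS, had 753 and 712 in rods. Blue cones had 417 and 421, green cones 452 and 439, and bipolar libraries 121 to 286. Pan-BC minus rods was -2.25 (SE 0.20, limma adjusted p = 2.8e-05), while -1.44 against blue cones missed the threshold (limma adjusted p = 0.057). In ON-BC, where Prdm1 had at most 3 reads of RNA, its promoter region still held 121 and 135.

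A region 72992 bp upstream of Prdm1 had 45.8 and 40.9 in OFF-BC, 5.97 and 8.78 in ON-BC and 57 to 128 in rods and blue cones. It was the other Prdm1 region called between ON-BC and OFF-BC, at -2.42 (SE 0.38, limma adjusted p = 0.016), and was called in 7 of 12 alternatives, but not by DESeq2, in a fit of ON-BC and OFF-BC alone, or without ON-BC replicate 1 or either OFF-BC replicate. A region 108656 bp upstream had 68.5 and 74.5 in rods. Blue cones had 10.4 and 1.45, green cones 26.1 and 19.7, and bipolar libraries at most 5.86. It was called between rods and blue cones at 3.78 (SE 0.72, limma adjusted p = 0.0091), in 8 of 12 alternatives, but not in a fit of rods and blue cones alone or without either rod replicate or blue cone replicate 2. The fit of rods and blue cones alone called 0 of all 108448 regions, so the missing call there is not particular to this region. Regions 121410 and 79782 bp upstream were also among the largest differences. The first was more open in rods, with 14 and 17.6 against 0 and 0.57 in pan-BC (limma adjusted p = 0.0034), and the second in both photoreceptors, with 50.6 and 61 in rods and 29.8 and 35.4 in blue cones against 1.6 and 6.27 in pan-BC. Its differences were -3.70 against rods (SE 0.56, limma adjusted p = 0.0003) and -2.94 against blue cones (SE 0.56, limma adjusted p = 0.006), the latter lost without pan-BC replicate 1. The region 38379 bp downstream of Prdm1 went the other way, with 48.8 and 70.1 in pan-BC, 65.7 and 70.3 in ON-BC and 24.2 and 29.2 in OFF-BC against 0 and 4.07 in rods and 5.18 and 8.67 in blue cones. It was more open in pan-BC by 4.72 against rods (SE 0.61, limma adjusted p = 3.3e-05) and by 2.94 against blue cones (SE 0.61, limma adjusted p = 0.0098), the latter lost without pan-BC replicate 2 or blue cone replicate 1.

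**Figure D4:**
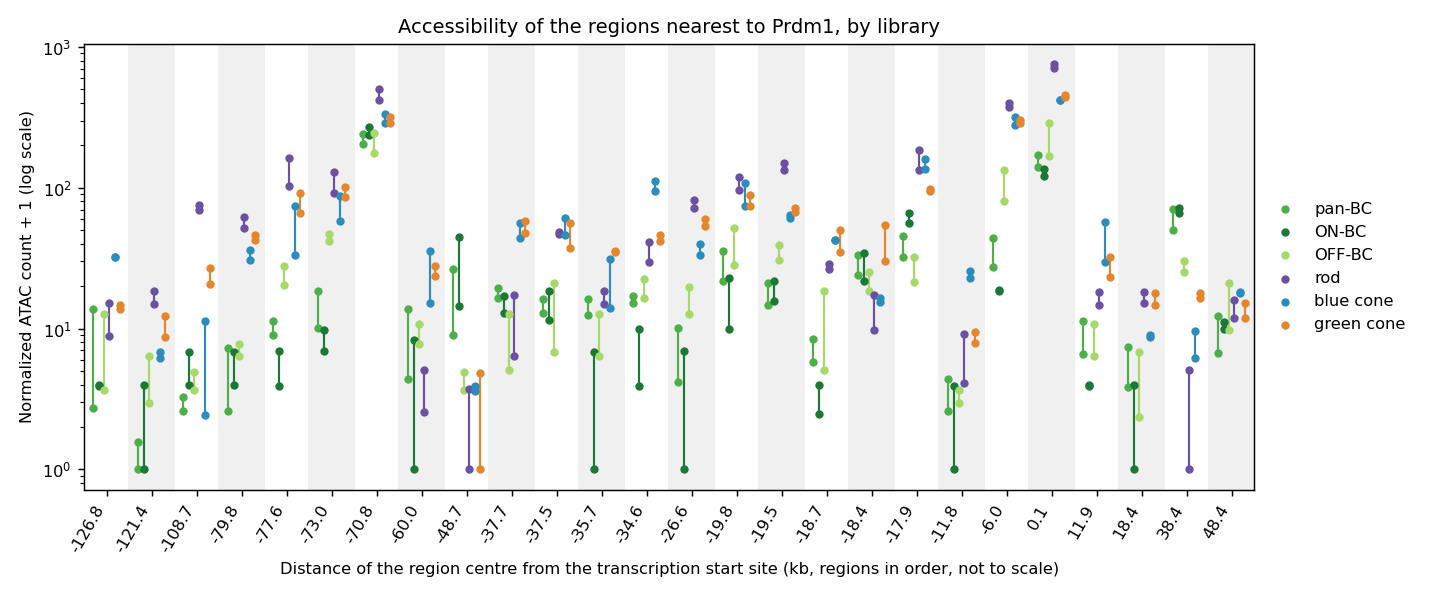
Each column is 1 of the 26 regions nearest to Prdm1, in order of distance from its TSS (kb, not to scale); points are single ATAC-seq libraries (normalized count + 1, log axis) and lines join the 2 libraries of a population. Rods and cones lie above bipolar cells in most columns, with 374 to 400 in rods against 17.6 to 132 in bipolar libraries at the region 5999 bp upstream, and the region 38379 bp downstream shows the reverse order.

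Prdm8 had regions that followed its RNA and regions that did not. The region 14549 bp upstream had counts of 109 and 84.9 in ON-BC and 79.2 and 95.2 in pan-BC. In OFF-BC it had 10.8 and 5.84, whereas rods had 1.56 and 1.36, blue cones 7.77 and 1.45, and green cones 6.15 and 4.22. Peaks were called there in the 4 ON-BC and pan-BC libraries and in no other. The region was more open in ON-BC than in OFF-BC by 3.44 (SE 0.63, limma adjusted p = 0.013, called in 10 of 13 alternatives), and in pan-BC than in rods by 5.16 (SE 0.63, limma adjusted p = 1.3e-05) and than in blue cones by 4.25 (SE 0.63, limma adjusted p = 0.00029). The ON-BC against OFF-BC call was lost without ON-BC replicate 1, ON-BC replicate 2 or OFF-BC replicate 2 (adjusted p up to 0.1). The region lies just before the start of the Prdm8 gene record on chromosome 5, at position 98167203 by a predicted transcript and upstream of the TSS used here.

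The region 42612 bp upstream of Prdm8 had 52.8 and 54.7 in pan-BC, 34.3 and 48.3 in ON-BC and 13.5 and 9.73 in OFF-BC. Rods had 1.56 and 0 and blue cones had no read, which makes pan-BC at least 38.6-fold higher than blue cones, with 3 reads over the population as the floor. It was called in both comparisons with photoreceptors (limma adjusted p = 9.8e-05 and 5.8e-05), whereas ON-BC minus OFF-BC was 1.74 (limma adjusted p = 0.71). Prdm8 had 2 promoter regions. The one 55 bp upstream of the TSS had 113 and 152 in ON-BC and 126 and 107 in pan-BC, against 40.4 and 45.8 in OFF-BC. Rods had 74 and 67.1, and blue cones 62.2 and 79.5. As for the RNA, OFF-BC was lowest and ON-BC and pan-BC were highest, but rods and blue cones overlapped, and limma's treat called none of the comparisons (1.59 for ON-BC minus OFF-BC, SE 0.26, limma adjusted p = 0.15). The promoter region 974 bp upstream did not follow the RNA. It had 73.2 and 68.4 in rods and 64.8 and 60 in blue cones, against 25.6 and 21.7 in pan-BC. ON-BC had 14.9 and 23.4 and OFF-BC 24.2 and 27.3 there, and limma's treat called this region in no comparison either. A region 12150 bp upstream had 307 and 348 in rods against 98.4 and 116 in pan-BC and was more open in rods (-1.60, SE 0.19, limma adjusted p = 0.0065, or 0.06 without rod replicate 2), where the mean Prdm8 RNA level was the lower.

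**Figure D5:**
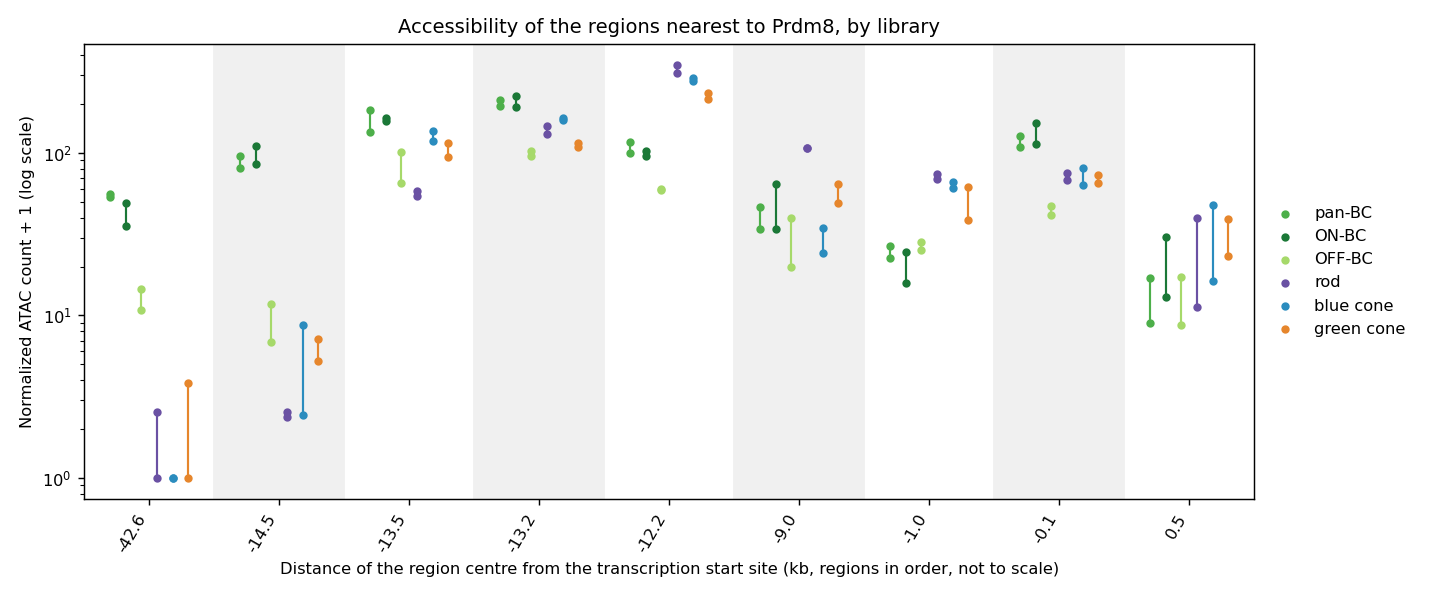
Columns are the 9 regions nearest to Prdm8 in order of distance from its TSS (kb, not to scale), with single ATAC-seq libraries as points (normalized count + 1, log axis) and lines joining the 2 libraries of a population. At 14549 bp upstream ON-BC and pan-BC (79.2 to 109) lie above all other populations, and at 12150 bp upstream rods and cones lie above bipolar cells.

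Prdm13 had almost no RNA, yet all 7 of its regions were more open in pan-BC than in rods and than in blue cones. Of all regions tested, 40.3% and 28.8% were called more open in pan-BC in these comparisons. Of these 7 regions, 6 lay 149787 to 385514 bp downstream of its TSS, so that the assignment rests on distance alone. Such calls were less common near a TSS. Within 50 kb they were 22776 against rods and 15270 against blue cones among 75797 regions, and 43735 and 31235 among all 108448. Whether the Prdm13 regions differ from other distant regions was not tested. The nearest, 10164 bp upstream, is described although its difference was not among the largest 3. It had 108 and 147 in pan-BC, and 112 and 105 in ON-BC. OFF-BC had 49.8 and 48.7, rods 1.56 and 8.13, and blue cones 10.4 and 15.2. It was called at 4.71 against rods (limma adjusted p = 8.3e-06) and at 3.23 against blue cones (limma adjusted p = 0.0016). The farthest, 385514 bp downstream, was open in ON-BC (61.2 and 92.2) and not in OFF-BC (2.69 and 3.89), a difference of 4.16 (SE 0.67, limma adjusted p = 0.0037). It had no read in rods or blue cones, and pan-BC were at least 54.5-fold and 42.5-fold higher. Regions 149787, 160791, 249072 and 277913 bp downstream had 20.8 to 71.3 in pan-BC and no read in rods, and the blue cone libraries had at most 5.18. The region 317538 bp downstream had 60.8 and 70.7 in pan-BC against 2.59 and 2.89 in blue cones (4.15, SE 0.61, limma adjusted p = 0.00032). All calls of Prdm13 regions against photoreceptors held in each alternative that tested them.

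Among the other members, the Prdm2, Prdm4, Prdm10 and Prdm15 promoter regions were called in no comparison (limma adjusted p above 0.05). The Prdm4 promoter region had 505 to 590 in bipolar cells and 841 to 1033 in rods and blue cones. The 2 Prdm15 promoter regions had 73.2 to 167 in bipolar libraries and 130 to 240 in rods and blue cones. Distal calls were few. A region 2833 bp downstream of a Prdm10 TSS had 37.6 and 35.4 in pan-BC against 0 and 2.71 in rods and 2.59 and 2.89 in blue cones, and was called in both comparisons (limma adjusted p = 0.0024 and 0.027), the second call being lost under TMM scaling and without any 1 of the pan-BC or blue cone replicates. A Prdm10 region 31051 bp downstream was more open in blue cones, with 94.5 and 62.1 against 17.6 and 9.69 in pan-BC (-2.46, limma adjusted p = 0.03), a call lost without pan-BC replicate 2 or either blue cone replicate. Prdm11 regions 63296 and 6566 bp upstream were more open in pan-BC than in both photoreceptors (limma adjusted p = 0.0014 to 0.029), but only the call of the nearer region against blue cones held in all 13 alternatives, and each of the others was lost without pan-BC replicate 2. In an intron of Prdm2, 21290 bp downstream of its TSS, pan-BC had 8.8 and 23.9 and blue cones no read, so that pan-BC were at least 11.8-fold higher (limma adjusted p = 0.0048, or 0.073 without pan-BC replicate 2).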

How the data were processed

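RNA-seq reads were aligned by the authors to GRCm38 with STAR (v2.7.0d) and counted on RefSeq genes with HTSeq. ATAC-seq reads were aligned with Bowtie2, duplicates were removed with Picard (v2.19.0), nucleosome-free fragments were kept, and peaks were called in each library with MACS2 (v2.1.1). The values of the deposited gene and region tables are a signal, that is read counts that carry the authors' scaling by library size factors. For each peak the authors' files give the fold enrichment of the summit over local background and the −log10 q value. All 230384 gene values and 1212862 region values above 0 (100.0%) came out as whole reads, within 0.01, once divided by the value of 1 read in their library, and these recovered reads were used for filters and count models.

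Genes and regions were filtered with filterByExpr of edgeR (4.0.16) on the recovered reads by population, which kept 14024 genes (of 24062) and 108448 regions (of 110715). For each assay, 1 model over all of its libraries, with the populations as levels, was fitted to log2(normalized count + 1). Contrasts were tested with treat of limma (3.58.1, trended prior) for changes beyond 1 on the log2 scale. Features with a Benjamini-Hochberg adjusted p under 0.05, over all features of the assay, were called. The scripts were tested on simulated data. Alternatives were a pseudocount of 4, no filter, TMM scaling, edgeR and DESeq2 (1.42.0) on the recovered reads, a test against no change, the populations compared alone, a replicate block, leaving out each replicate, and, for regions, a limit of 50 kb around the TSS. A region belonged to the gene whose RefSeq TSS (GRCm38.p6, 45755 transcripts) was nearest to its centre, and a promoter ran from 1000 bp before to 100 bp after a TSS. Peaks were matched to a region where they shared at least 100 bases with it. Levels per kb used the union of RefSeq exons.

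The 9 members, the gene lists and the cell type markers were chosen with earlier results of these data known. From each list and contrast, up to 3 called genes with the largest log2 fold change were named, with the 3 genes nearest in pattern to the 3 members that ranged most. All promoter regions of members and, per member and contrast, up to 3 called regions were named. The Prdm11 region 501 bp downstream of its TSS, the order of libraries in Prdm1 and the cone markers, and the values of Zfp879 were added after values were seen. No table of proteins and no promoter of Prdm2 were used here. Some listed genes are not reported here.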

Additional observations from a re-analysis of the deposited data

Results flagged for a closer look

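The difference of Prdm2 between pan-BC and blue cones (0.86 on the log2 scale) and that between pan-BC and rods (-0.53) were not the same. They share the pan-BC libraries, so the gap between them is the difference of rods and blue cones, 1.40, which limma's treat called (SE 0.13, adjusted p = 0.021, n = 3 libraries each), with all 3 rod libraries above all 3 blue cone libraries. The call was lost without rod replicate 2, without blue cone replicate 3 and in the fit of rods and blue cones alone. The cause of the difference was not tested.

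The region 108656 bp upstream of Prdm1 was more open in rods than in pan-BC (pan-BC minus rods -4.63, limma adjusted p = 0.00018), and its gap to blue cones was smaller. The test of rods against blue cones gave 3.78 (SE 0.72, limma adjusted p = 0.0091), with 68.5 and 74.5 in rods and 10.4 and 1.45 in blue cones. Blue cones differed among themselves here, and the call was lost without blue cone replicate 2 or either rod replicate. It was also lost in the fit of rods and blue cones alone, which called 0 of all 108448 regions. The 2 green cone libraries of the table, at 26.1 and 19.7, lay between rods and blue cones.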

How the results depend on the processing

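The RNA call counts of members stayed within 1.5 times the reported counts except as follows. With limma against no change, 6 of 7 members were called for pan-BC against rods, 6 against blue cones and 3 for rods against blue cones, and edgeR called 2 in the last comparison. Leaving out 1 replicate gave 1 to 1 calls for ON-BC against OFF-BC, 1 to 2 for pan-BC against rods, 2 to 2 against blue cones and 0 to 2 for rods against blue cones. For regions of members, limma against no change called 19, 48, 43 and 16 of 63 in these 4 comparisons, edgeR called 6 for rods against blue cones, and fits of the compared populations alone called 2 for ON-BC against OFF-BC and 0 for rods against blue cones. The fit of rods and blue cones alone also called 0 of all 108448 regions. Within 50 kb of a TSS (48 regions of members) the counts in the 4 comparisons were 2, 13, 13 and 0. Leaving out 1 replicate gave 3 to 4, 23 to 26, 16 to 19 and 0 to 1, where a population left with 1 ATAC-seq library was assumed to vary like the others. The Prdm2 log2 fold change of ON-BC minus OFF-BC turned from 0.05 to -0.02 without ON-BC replicate 2 and to -0.05 without OFF-BC replicate 3 (-0.05 to 0.13 over the replicates left out). The causes were not tested. Over all regions, ON-BC against OFF-BC gave 8010 calls with limma, 13665 with edgeR and 4762 with DESeq2.

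The labels number ON-BC and OFF-BC replicates alike and give same-numbered libraries the same age, but do not say that they shared animals. Their deviations from the group means correlated at -0.08, 0.22 and -0.07 by number, not all above 0.1, and not every library correlated best with its own number, so the replicates were not treated as paired. With a replicate block, 1, 2, 2 and 1 members and 4, 26, 24 and 1 regions were called in the 4 comparisons, as without it, and over all genes 907 in place of 919 between ON-BC and OFF-BC.

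Depth limits Prdm11, Prdm13 and Prdm1 in bipolar cells, where a library held few reads, and 2 ATAC-seq libraries per population limit the region calls.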
